A study of Mus musculus with 9 samples.

Results

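The tumour necrosis factor (TNF) superfamily genes were followed in RAW264.7, a line of mouse macrophages from which osteoclasts form when the cytokine RANKL is given. The members were taken by gene symbol: Tnf, Lta, Ltb, Ltbr, Fas, every numbered Tnfsf and Tnfrsf gene, and Traf1 to Traf7, leaving out Tnfrsf11a (the RANKL receptor RANK) and Traf6. This rule found 41 of the 23282 gene rows, namely 14 ligands, 21 receptors and 6 TRAF adaptors. Of these, 24 reached 10 adjusted reads in 3 or more of the 9 libraries (7 ligands, 11 receptors and all 6 TRAFs) and 17 did not. Adjusted reads are the deposited log2 values returned to the linear scale with the constant of 1 taken off, and 1 sequenced read was worth between 0.929 and 1.10 of them.

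TNF superfamily ligands are mostly made as trimers on the cell surface, and some are then cut free by proteases. Some of their receptors carry a death domain and recruit TRADD or FADD, and many recruit TRAF proteins, which pass the signal to the NF-κB and MAP kinase pathways. In macrophages TNF is a classical product of bacterial stimulation, and in bone marrow it acts beside RANKL, itself the family member Tnfsf11, on osteoclast precursors.

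The 9 libraries formed 3 groups of 3. Cells of the negative control were treated with RANKL alone at 50 ng/mL. Another group received RANKL together with surface proteins of Propionibacterium freudenreichii MJ2 at 10 μg/mL, and the last received heat-killed MJ2 at 10000000 cells/mL. Treatment lasted 4 days in each group, and whether each heat-killed MJ2 library also had RANKL is not stated in the labels. All libraries came from passage 30 of the same line, labelled as a macrophage of BALB/c origin, and nothing says that they came from separate cultures, so p-values measure the spread between these libraries, which may be technical.

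Totals ranged from 5930926 to 6503682 adjusted reads per library. Of 8 macrophage markers, 7 reached 10 adjusted reads, while Mertk was listed at 0. Their sums were 18153 to 19603 in RANKL alone, 24114 to 25242 with heat-killed MJ2 and 19702 to 21222 with surface proteins, but single markers moved in opposite directions. Itgam ranged from 212 to 259, 998 to 1347 and 1743 to 2152 in that order, and Cd14 from 320.4 to 769.7, 4566 to 5230.5 and 2353 to 3657. Csf1r, the M-CSF receptor, ranged from 8809 to 9877, 5552 to 6575 and 2657 to 4161. Osteoclast markers summed to between 20914 and 33120 adjusted reads in RANKL alone, between 13868 and 16029 with heat-killed MJ2 and between 5262 and 7864 with surface proteins, and 9 of the 10 reached 10 adjusted reads in each group. None of 5 T cell markers and none of 4 epithelial markers reached that level, and of 4 B cell markers 1 did, in the surface protein group. Fibroblast and osteoblast markers summed to 4.48 to 76.2, 42.2 to 85.2 and 48.0 to 86.6 in RANKL alone, heat-killed MJ2 and surface proteins. The neutrophil list moved through S100a8 alone, with sums of 0 to 0.112 in RANKL alone, 1900.3 to 2056 with heat-killed MJ2 and 113 to 209 with surface proteins. Macrophage and osteoclast markers and several members below moved with the same groups, and the part of the markers in those results was not tested. In bulk RNA, fewer cells of a type and less RNA per cell cannot be told apart.

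The 250 bases before the RefSeq start are shown for Tnf, Tnfrsf1b, Fas and Tnfsf8, whose changes against RANKL alone the results turn on, so that the regulatory letters can be read beside the values. They were read from the GRCm38.p6 table, which matched 34 of the 41 members by symbol, and are written 5′ to 3′ on the gene's strand with motif matches in capitals.
Tnf (chr17:35202008-35202257, minus strand): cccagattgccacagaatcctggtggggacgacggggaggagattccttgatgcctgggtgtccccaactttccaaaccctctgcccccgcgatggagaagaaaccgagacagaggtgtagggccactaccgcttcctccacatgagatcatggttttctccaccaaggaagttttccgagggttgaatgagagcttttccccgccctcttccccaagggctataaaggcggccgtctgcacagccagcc
Tnfrsf1b (chr4:145246871-145247120, minus strand): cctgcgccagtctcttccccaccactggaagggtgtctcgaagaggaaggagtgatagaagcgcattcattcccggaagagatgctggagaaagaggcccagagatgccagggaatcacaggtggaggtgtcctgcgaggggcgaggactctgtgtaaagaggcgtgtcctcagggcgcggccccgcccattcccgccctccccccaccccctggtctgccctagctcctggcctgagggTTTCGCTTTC
Fas (chr19:34290409-34290658, plus strand): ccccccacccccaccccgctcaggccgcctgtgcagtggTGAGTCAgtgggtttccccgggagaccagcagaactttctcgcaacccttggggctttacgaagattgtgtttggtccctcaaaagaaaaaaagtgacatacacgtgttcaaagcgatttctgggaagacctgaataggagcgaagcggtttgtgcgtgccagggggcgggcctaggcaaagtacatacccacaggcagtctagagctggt
Tnfsf8 (chr4:63861285-63861534, minus strand): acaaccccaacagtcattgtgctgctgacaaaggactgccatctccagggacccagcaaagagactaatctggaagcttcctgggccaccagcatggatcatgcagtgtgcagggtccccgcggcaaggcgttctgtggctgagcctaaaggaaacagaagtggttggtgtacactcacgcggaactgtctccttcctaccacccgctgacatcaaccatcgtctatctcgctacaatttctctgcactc

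Both strands of these windows were searched for the κB consensus, the AP-1 site TGANTCA, the core of the interferon-stimulated response element and the cyclic-AMP site TGACGTCA. In Tnfrsf1b the capitals mark the interferon-response core read from the other strand, in the last 10 bases before the start. In Fas they mark an AP-1 match, from 211 to 205 bases before the start. Tnf and Tnfsf8 held none of the 4 motifs in this window, which says only that these letters are not there. Among 38 member promoters, 4 (10.5%) held the κB consensus, 6 (15.8%) AP-1, 4 (10.5%) the interferon-response core and 0 the cyclic-AMP site. The shares among 32851 promoters of the same length were 3.90%, 6.75%, 2.98% and 1.55%. A match is a description of the sequence, not a bound site.

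**Figure D1:**
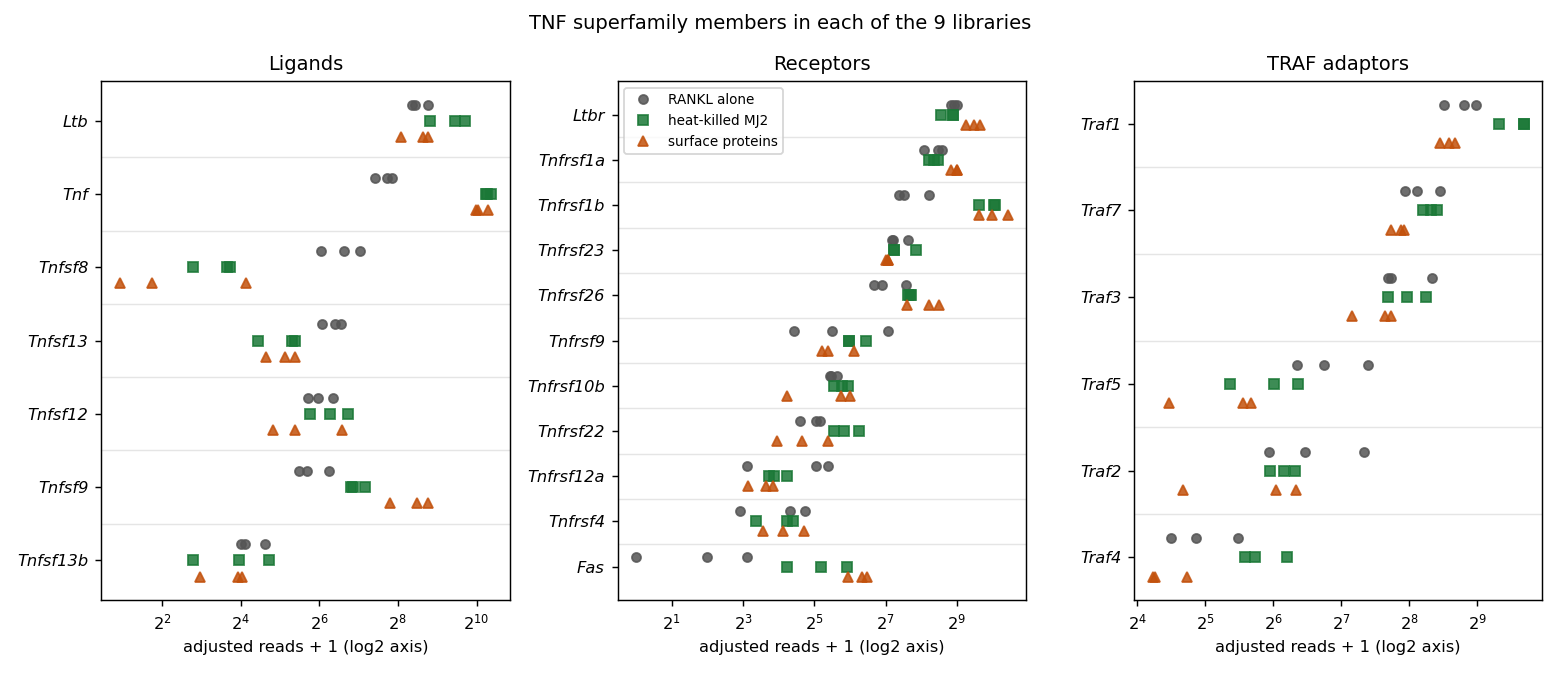
Adjusted reads + 1 (log2 axis) of the 24 members that reached 10 adjusted reads in at least 3 libraries, with 1 point for each of the 9 libraries. Among ligands, Tnf and Tnfsf9 lie to the right of RANKL alone in both treated groups and Tnfsf8 to the left. Among receptors, Tnfrsf1b and Fas lie to the right in both.

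Surface proteins were compared with RANKL alone to see which members differed when the extract was added to the differentiating cells. Tnf, its second receptor Tnfrsf1b, the co-stimulatory ligand Tnfsf9 and the death receptor Fas were higher, and the ligands Tnfsf8 and Tnfsf13 and the adaptor Traf5 were lower. That was 7 of the 24 members tested, 4 higher and 3 lower, against 17.5% of all 10874 genes tested (10.2% higher and 7.32% lower). To pass, a gene needed a limma adjusted p under 0.05 together with a change of 2 times or more in either direction. The median log2 fold change was -0.24 over the 24 members and -0.01 over all genes tested, and the median size of the change was 0.55 and 0.46. The ranges of the 2 groups did not overlap in 12 of the 24 members, beside 48.4% of all genes tested.

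Heat-killed MJ2 was compared with the same RANKL libraries, so the 2 comparisons are not independent and their values are given side by side. As the labels do not say whether this group had RANKL too, the bacterium and a lack of RANKL cannot be told apart here. Tnf, Tnfrsf1b and Tnfsf9 were higher and Tnfsf8 was lower, which made 4 of 24 members against 4.26% of 10814 genes (3.37% higher and 0.897% lower). Here the median log2 fold change was 0.19 over the members and -0.0042 over all genes, and the median size was 0.60 and 0.27. Ranges of the 2 groups did not overlap in 11 of 24 members, beside 30.2% of all genes. In both comparisons Fas entered the test only through its treated libraries, so it had to differ and its part in these counts is no support for them.

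Surface proteins were also compared with heat-killed MJ2, the extract against the whole bacterium. The doses are in unlike units, and the labels do not say whether the heat-killed MJ2 libraries had RANKL. The material, its dose and RANKL therefore cannot be told apart in this comparison. Of the 24 members, 2 passed, Tnfsf9 higher and Traf4 lower, against 10.1% of 10916 genes (5.08% higher and 4.97% lower). At any fold change 5 members had an adjusted p under 0.05, beside 17.9% of all genes, and 9 had an unadjusted p under 0.05, beside 35.3%. The median log2 difference was -0.42 over the members and 0.03 over all genes, the median size was 0.51 and 0.38, and 10 of 24 members did not overlap, beside 42.3% of all genes. This count moved with single libraries: it was 0 without heat-killed MJ2 library 3, 1 without heat-killed MJ2 library 1 or surface protein library 2, and 4 without heat-killed MJ2 library 2 or surface protein library 1.

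**Figure D2:**
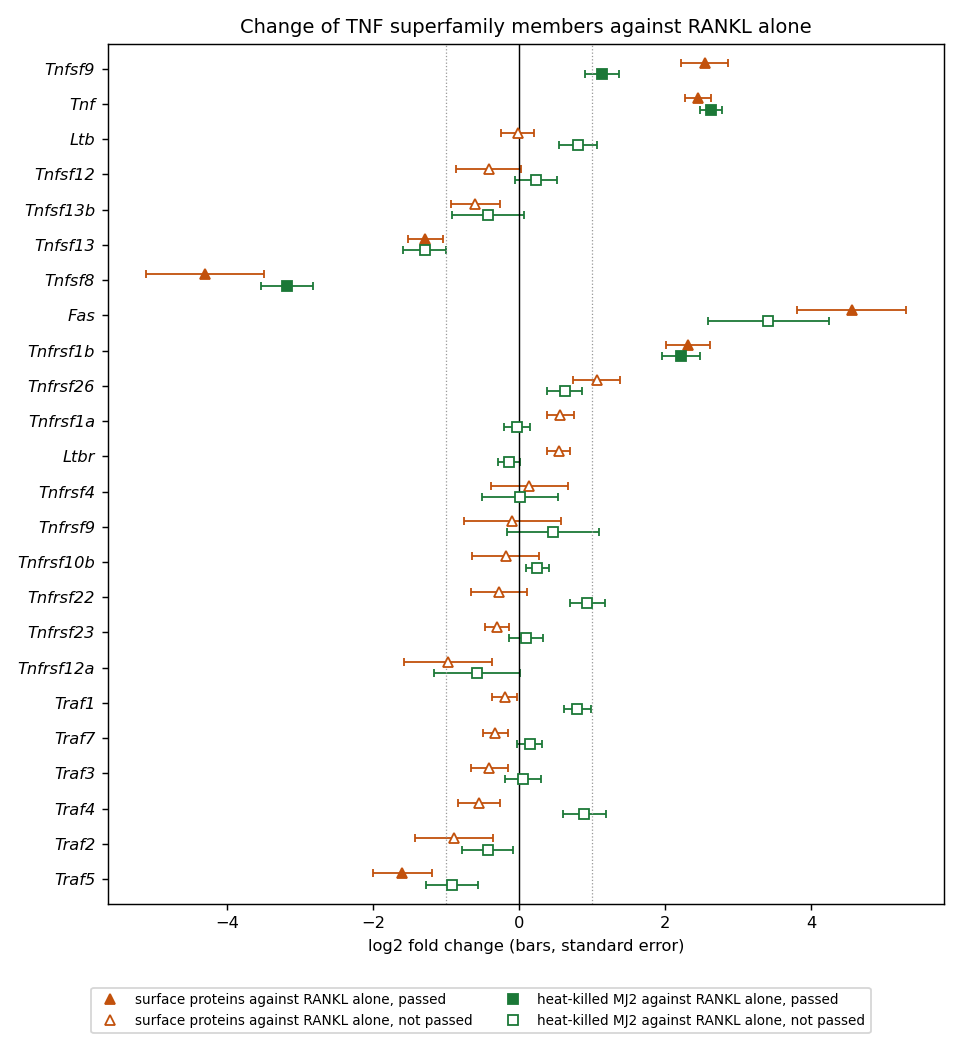
Log2 fold change with its standard error (bars) for the 24 members tested, surface proteins (triangles) and heat-killed MJ2 (squares) each against the same 3 RANKL libraries. Filled symbols passed and dotted lines mark a fold change of 2. Tnf (2.45 and 2.63) and Tnfrsf1b (2.31 and 2.21) lie close together in the 2 comparisons, and Tnfsf8 lies farthest to the left in both.

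Among ligands, Tnf encodes the founding cytokine of the family. It lies at chr17:35199381-35202007 on the minus strand (GRCm38), 1157 bases from Lta and 3060 bases from Ltb. RANKL alone libraries 1 to 3 held 229.6, 209 and 171 adjusted reads of Tnf, heat-killed MJ2 1235, 1322 and 1202, and surface proteins 1018, 1259.7 and 1053. Every treated library was above every RANKL library, and the 2 treated groups overlapped. The log2 fold change was 2.45 ± 0.17 (SE; limma adjusted p = 0.000587) with surface proteins and 2.63 ± 0.16 (adjusted p = 0.000673) with heat-killed MJ2, a rise of 5.46 and 6.18 times on the log2(value + 1) scale. Between the treated groups the difference was -0.18, with a 95% interval of -0.53 to 0.17 (limma adjusted p = 0.411).

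Of the neighbouring lymphotoxin genes, Ltb passed in no comparison of all libraries and Lta was left out by the filter on low values. Ltb, which encodes the membrane-bound subunit of lymphotoxin, held 434, 327 and 343 adjusted reads in RANKL alone, 831, 449 and 696 with heat-killed MJ2, and 399, 269.6 and 433 with surface proteins. All heat-killed MJ2 libraries were above those of the other groups, by a narrow gap for library 2, but neither difference passed: log2 fold change 0.80 ± 0.26 against RANKL alone (limma adjusted p = 0.136) and, for surface proteins against heat-killed MJ2, -0.82 ± 0.29 (adjusted p = 0.101). The latter passed narrowly without heat-killed MJ2 library 2 (-1.08, limma adjusted p = 0.0491). Surface proteins and RANKL alone overlapped (-0.02, 95% interval -0.58 to 0.54). Lta, the soluble lymphotoxin subunit, stayed under 6 adjusted reads in RANKL alone and heat-killed MJ2 and held 13.8, 9.67 and 2.25 with surface proteins.

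Read as a share of all ligand reads, Tnf made up 23.3%, 25.6% and 18.8% in RANKL alone, 53.3%, 63.0% and 56.0% with heat-killed MJ2, and 57.8%, 59.6% and 54.3% with surface proteins. Reads come from the 3′ end of transcripts, so these shares carry no length correction. In RANKL alone Ltb stood first among ligands, above Tnf without overlap, and in both treated groups Tnf held the larger share. Ltb made up 37.6% to 44.1% in RANKL alone, 21.4% to 35.8% with heat-killed MJ2 and 12.8% to 22.7% with surface proteins. Ligand reads in all summed to 817 to 985 in RANKL alone, 2100.1 to 2320.0 with heat-killed MJ2 and 1763 to 2112 with surface proteins.

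Tnfsf9 encodes the ligand of the co-stimulatory receptor Tnfrsf9. Its adjusted reads were 44.0, 75.6 and 50.4 in RANKL alone, 112, 141 and 116 with heat-killed MJ2, and 221, 432 and 359.8 with surface proteins. The 3 groups stood apart in 3 steps with no overlap. Against RANKL alone, surface proteins gave a log2 fold change of 2.54 ± 0.32 (limma adjusted p = 0.00322), and this call held under all 15 alternatives fitted. Heat-killed MJ2 gave 1.13 ± 0.23 (limma adjusted p = 0.0456). Surface proteins exceeded heat-killed MJ2 by 1.41 ± 0.27 (limma adjusted p = 0.0221).

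The smaller Tnfsf9 differences depended on single libraries and on settings. With heat-killed MJ2 the limma adjusted p was 0.109 without RANKL library 1, 0.125 without RANKL library 3, and 0.119, 0.126 and 0.121 without heat-killed MJ2 library 1, 2 or 3. Between the treated groups it was 0.0609 and 0.0669 without surface protein library 2 or 3, and 0.0813 and 0.0763 without heat-killed MJ2 library 1 or 3. The heat-killed MJ2 call was also lost under quantile normalization (0.0526), with no filter (0.0895) and with a constant of 0.1 (0.0533), and the call between the treated groups with no filter (0.0514). The receptor Tnfrsf9 held 20.5, 133 and 44.5 adjusted reads in RANKL alone, 62.4, 86.1 and 61.8 with heat-killed MJ2 and 41.1, 36.4 and 68.0 with surface proteins. RANKL library 2 was the highest of all and the groups overlapped, so no change of Tnfrsf9 was detectable at this spread (95% interval for surface proteins against RANKL alone, -1.69 to 1.50 log2). The ratio of Tnfsf9 to Tnfrsf9 reads was 0.566 to 2.14 in RANKL alone, 1.64 to 1.87 with heat-killed MJ2 and 5.29 to 11.9 with surface proteins.

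Tnfsf8, the ligand of the lymphocyte receptor CD30 (Tnfrsf8), was lower in both treated groups. RANKL alone libraries held 98.7, 64.5 and 129.6 adjusted reads, heat-killed MJ2 12.3, 11.6 and 5.86, and surface proteins 16.6, 0.904 and 2.34. All treated libraries were below the lowest RANKL library, and surface protein libraries 2 and 3 were under the floor of 3 reads that a count of 0 allows. Its log2 fold change was -4.30 ± 0.81 (SE; limma adjusted p = 0.0117) with surface proteins and -3.18 ± 0.36 (adjusted p = 0.00816) with heat-killed MJ2. The first size varied with single libraries and was -5.23 without surface protein library 1 and -3.63 without library 2. The treated groups overlapped (difference -1.12, 95% interval -3.09 to 0.85), and the difference ran from -2.05 without surface protein library 1 (limma adjusted p = 0.0361) to -0.45 without surface protein library 2 (0.724). Tnfsf15, the neighbouring ligand gene 86194 bases away on chromosome 4, was at 16.1, 6.49 and 16.8 in RANKL alone, 4.89 to 6.77 with heat-killed MJ2 and 0.919 to 6.61 with surface proteins, and was left out by the filter on low values.

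Tnfsf13 (APRIL), a survival factor of B and plasma cells, was also lower with treatment. Its values were 83.6, 65.7 and 93.0 in RANKL alone, 40.9, 38.7 and 20.6 with heat-killed MJ2, and 41.1, 24.0 and 34.1 with surface proteins. Neither treated group overlapped RANKL alone. The log2 fold change was -1.28 ± 0.24 (limma adjusted p = 0.0121) with surface proteins and -1.29 ± 0.29 (adjusted p = 0.0600, not passed) with heat-killed MJ2. These reads cannot be given to 1 transcript: all 426 windows of 75 bases at its 3′ end are shared with the readthrough gene Tnfsfm13, whose row held nearly the same values (94.8, 65.7 and 94.9, then 45.0, 39.6 and 20.6, then 41.1, 24.0 and 34.1). An antisense gene, Tnfsf13os, also lies over that end.

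The other detected ligands overlapped between the groups compared. Tnfsf12 (TWEAK), 465 bases from Tnfsf13, ranged from 51.8 to 81.1 adjusted reads in RANKL alone, 53.2 to 105 with heat-killed MJ2 and 27.6 to 94.1 with surface proteins. Tnfsf13b (BAFF), the B cell survival factor, ranged from 15.0 to 23.7, 5.86 to 25.5 and 6.83 to 15.4. Tnfsf10 (TRAIL), Tnfsf18 and Tnfsf14 stayed under 12 adjusted reads in each library. Tnfsf11 and Tnfsf4 were listed at 0 in all 9 libraries, so the cells' own RANKL transcript was not detected in any of them.

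Among receptors, Tnfrsf1b encodes TNF receptor type 2, which lacks a death domain and signals through TRAF2. It lies at chr4:145213463-145246870, minus strand. Values were 183, 294 and 164 adjusted reads in RANKL alone, 1050.3, 1068 and 792 with heat-killed MJ2, and 785, 1370.0 and 1022 with surface proteins. All treated libraries were above all RANKL libraries. The log2 fold change was 2.31 ± 0.30 (SE; limma adjusted p = 0.00366) with surface proteins and 2.21 ± 0.26 (adjusted p = 0.00965) with heat-killed MJ2. The treated groups overlapped, with a difference of 0.10 and a 95% interval of -0.49 to 0.70.

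Tnfrsf1a, TNF receptor type 1 with its death domain, passed in no comparison. It held 355, 268 and 385 adjusted reads in RANKL alone, 352, 328 and 298 with heat-killed MJ2, and 459.8, 512 and 508 with surface proteins. Surface protein libraries were above all others. The difference did not pass against RANKL alone (0.57 ± 0.18, limma adjusted p = 0.0578), and against heat-killed MJ2 it had an adjusted p of 0.0322 at a log2 fold change of 0.60, under the fold limit.

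The ratio of Tnfrsf1b to Tnfrsf1a reads was higher in each treated library than in every RANKL library. It was 0.514, 1.10 and 0.427 in RANKL alone, 2.98, 3.26 and 2.66 with heat-killed MJ2, and 1.71, 2.68 and 2.01 with surface proteins. The 2 receptors together gave 538 to 563 adjusted reads in RANKL alone, 1090.1 to 1402 with heat-killed MJ2 and 1245 to 1882 with surface proteins. Receptor reads over all 21 members summed to 1445 to 1687, 2065 to 2586 and 2429 to 3317 in the same order.

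**Figure D3:**
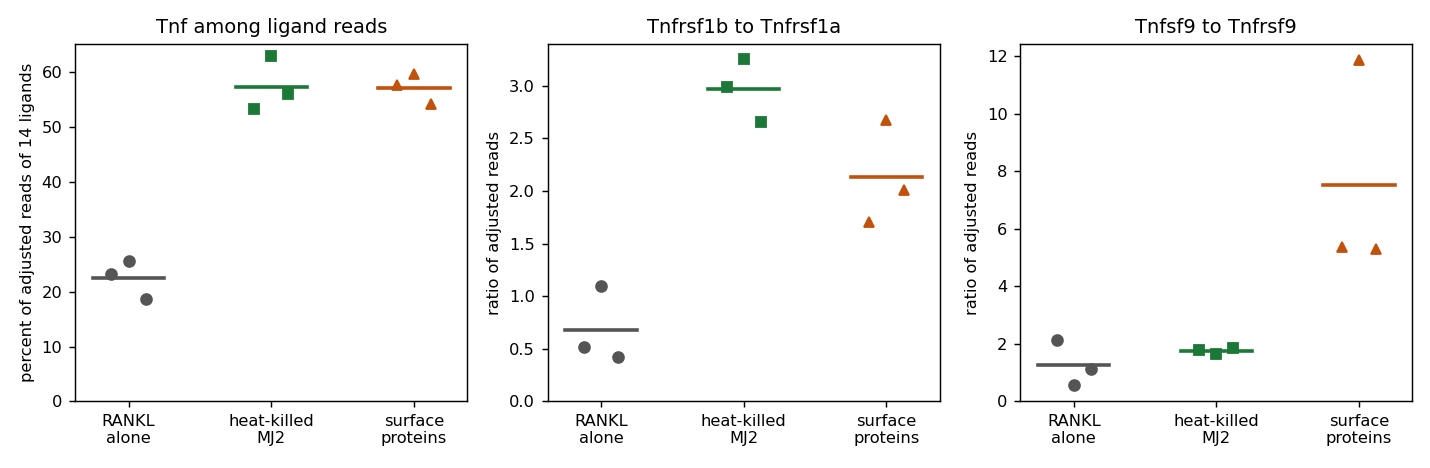
Values per library (points) and group means (lines): Tnf as a percentage of the adjusted reads of the 14 ligands, the ratio of Tnfrsf1b to Tnfrsf1a, and the ratio of Tnfsf9 to Tnfrsf9. The first 2 measures lie above all RANKL libraries in both treated groups, and the Tnfsf9 ratio does so only with surface proteins, where it is 5.29 to 11.9.

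Fas, the death receptor for Fas ligand, was under 10 adjusted reads in each RANKL library. It held 0, 7.66 and 2.95 adjusted reads there, 59.3, 35.8 and 17.6 with heat-killed MJ2, and 60.7, 79.8 and 88.6 with surface proteins. The 3 groups did not overlap, although surface protein library 1 and heat-killed MJ2 library 1 lay close together. With surface proteins the log2 fold change was 4.56 ± 0.75 (limma adjusted p = 0.00762), and with heat-killed MJ2 it was 3.41 ± 0.83 (adjusted p = 0.0719, not passed). Because RANKL libraries lie near 0, the constant added to the reads sets this size: with 0.1 in place of 1 it was 5.82 and 4.65, and with 2 it was 4.08 and 2.96. With surface proteins it was 3.71 without RANKL library 1 and 5.27 without RANKL library 2. With heat-killed MJ2 it ran from 2.56 to 4.12 when 1 library was left out, and 0 of 6 such fits passed. Its limma adjusted p reached 0.193 across the alternatives. Between the treated groups the difference was 1.14 ± 0.43 (limma adjusted p = 0.113).

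Ltbr, the lymphotoxin β receptor, stood first among receptors in RANKL alone. It lies 35476 bases from Tnfrsf1a on chromosome 6. Its adjusted reads were 459, 508 and 487 in RANKL alone, 474, 478 and 374 with heat-killed MJ2, and 616, 797 and 711 with surface proteins. Surface protein libraries were above all others, as for Tnfrsf1a. The adjusted p was 0.0421 against RANKL alone and 0.0428 against heat-killed MJ2 (limma), at log2 fold changes of 0.54 and 0.68, so neither reached a fold change of 2.

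Tnfrsf26, Tnfrsf22 and Tnfrsf23 form a cluster on chromosome 7, and the last 2 encode mouse decoy receptors for TRAIL. Tnfrsf26 held 119, 188 and 101 adjusted reads in RANKL alone, 205, 195 and 207 with heat-killed MJ2, and 192, 299 and 359.8 with surface proteins. Treated libraries were all above RANKL libraries, with a log2 fold change of 1.06 ± 0.32 (limma adjusted p = 0.0528, not passed) for surface proteins and 0.62 ± 0.24 (adjusted p = 0.198) for heat-killed MJ2. The first would pass without RANKL library 2 (1.32, adjusted p = 0.0365) or surface protein library 1 (1.32, adjusted p = 0.0353).

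Tnfrsf22 was highest with heat-killed MJ2. Its adjusted reads were 23.4, 32.4 and 34.6 in RANKL alone, 75.6, 45.5 and 55.9 with heat-killed MJ2, and 41.1, 14.3 and 24.2 with surface proteins. The heat-killed MJ2 group overlapped neither other group, but no difference passed (0.94, limma adjusted p = 0.0841 against RANKL alone; -1.21, adjusted p = 0.0802 for surface proteins against heat-killed MJ2). The second was -1.58 without surface protein library 1 (limma adjusted p = 0.0384) and -0.85 without surface protein library 2, and leaving out 1 library took its adjusted p up to 0.211. Tnfrsf23 ranged from 145 to 198, 149 to 232 and 128 to 133 in RANKL alone, heat-killed MJ2 and surface proteins. Tnfrsf22 shares 64 of its 426 3′ windows of 75 bases with Tnfrsf23, which shares 199 of its own, so reads of the pair may have been split.

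The remaining detected receptors overlapped between groups. Tnfrsf10b, the mouse TRAIL death receptor, ranged from 42.5 to 48.8 adjusted reads in RANKL alone, 46.0 to 60.9 with heat-killed MJ2 and 17.7 to 63.6 with surface proteins. Tnfrsf12a (Fn14), the receptor of TWEAK, ranged from 7.63 to 40.6, 12.3 to 17.7 and 7.80 to 13.2. Tnfrsf4 (OX40), a co-stimulatory receptor of T cells, ranged from 6.49 to 25.8, 9.23 to 20.3 and 10.7 to 25.1. Tnfrsf11b (osteoprotegerin, the decoy receptor for RANKL), Tnfrsf14 and Tnfrsf17 were listed at 0 in every library. Tnfrsf18 reached 27.6 adjusted reads in RANKL library 2 and 11.8 in heat-killed MJ2 library 3 and stayed under 10 elsewhere, while Tnfrsf8, Tnfrsf13b, Tnfrsf13c, Tnfrsf19, Tnfrsf21 and Tnfrsf25 stayed under 10 in every library.

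Many receptors of the family signal through TRAF adaptors. With surface proteins the fitted log2 fold change was below 0 for all 6 against RANKL alone and also against heat-killed MJ2, with medians of -0.47 and -0.58, while 5383 of 10874 and 5694 of 10916 genes tested were above 0. These comparisons share the 3 surface protein libraries, so the second count is not independent of the first. In the first of these comparisons 1 of 6 passed, Traf5, which at 16.7% is near the 17.5% of all genes, and in the second 1 of 6, Traf4, beside 10.1%. With heat-killed MJ2 against RANKL alone 4 of 6 were above 0, the median was 0.10 and 0 passed by limma, beside 4.26% of all genes, while 3 had an unadjusted p under 0.05, beside 22.6% of all genes. With surface proteins against RANKL alone, 1 of 6 had an unadjusted limma p under 0.05, beside 42.3% of all genes. Surface proteins against heat-killed MJ2 gave 3 of 6, beside 35.3%. TRAF reads summed to 1068 to 1340.5 in RANKL alone, 1476 to 1574 with heat-killed MJ2 and 865 to 965 with surface proteins, with no overlap between groups. Traf1 held the most reads of the 6 in each group, so these sums are weighted to it and do not describe all 6. Taken singly, 2 of 6 TRAFs did not overlap with surface proteins and 2 of 6 with heat-killed MJ2, each against RANKL alone. Between the treated groups it was 3 of 6, and the shares of all genes were 48.4%, 30.2% and 42.3%.

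Traf5, a partner of TRAF2 at several co-stimulatory receptors, held 80.6, 167 and 106 adjusted reads in RANKL alone, 63.4, 81.3 and 40.2 with heat-killed MJ2, and 49.9, 21.1 and 46.2 with surface proteins. Surface protein libraries were all below RANKL libraries. The log2 fold change was -1.60 ± 0.41 (limma adjusted p = 0.0310) with surface proteins and -0.91 ± 0.36 (adjusted p = 0.197) with heat-killed MJ2. The first call was lost without RANKL library 2 or 3 (limma adjusted p = 0.0775 and 0.0751) and without surface protein library 2 or 3 (0.0642 and 0.0551). It was also lost with no filter (0.0710) and with the replicate block (0.0840).

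Traf1, which NF-κB is known to induce, held 445, 363 and 505 adjusted reads in RANKL alone, 823, 639 and 821 with heat-killed MJ2, and 350.4, 406 and 383 with surface proteins. The heat-killed MJ2 libraries were above all others, and the other groups overlapped. Surface proteins were lower than heat-killed MJ2 by a log2 difference of -0.99 ± 0.16 (limma adjusted p = 0.0147), just short of a fold change of 2. It passed without heat-killed MJ2 library 2 (-1.11, limma adjusted p = 0.0155) and without surface protein library 2 (-1.04, 0.0436) or 3 (-1.0003, 0.0483), and also under quantile normalization (-1.03) and equal totals (-1.07). Against RANKL alone, heat-killed MJ2 gave 0.80 ± 0.19 (limma adjusted p = 0.0650).

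Traf4 showed the same order. Its values were 28.1, 21.6 and 43.5 in RANKL alone, 47.0, 72.6 and 52.0 with heat-killed MJ2, and 25.4, 18.2 and 17.7 with surface proteins. Heat-killed MJ2 libraries were again above the rest, and surface proteins were lower than heat-killed MJ2 by -1.44 ± 0.23 (limma adjusted p = 0.0145). That call was lost narrowly without surface protein library 2 (adjusted p = 0.0508) or heat-killed MJ2 library 3 (adjusted p = 0.0528). Against RANKL alone Traf4 did not pass with heat-killed MJ2 (0.89 ± 0.29, limma adjusted p = 0.142) or surface proteins (-0.54 ± 0.29, adjusted p = 0.203).

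The other adaptors overlapped between RANKL alone and heat-killed MJ2. Traf2, which recruits the cIAP ubiquitin ligases, ranged from 60.4 to 159.6 adjusted reads in RANKL alone, 60.9 to 78.8 with heat-killed MJ2 and 24.4 to 79.7 with surface proteins. Traf3, a brake on the non-canonical NF-κB kinase Map3k14, ranged from 204 to 322, 206 to 303 and 142 to 210.4. Traf7, which has WD40 repeats in place of the usual TRAF domain, ranged from 245 to 348, 294 to 339 and 212 to 241, and its 3′ end overlaps the opposite-strand gene Caskin1.

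Relatives whose symbols carry no family number were read from a list of 11 genes, of which 3 were high enough to test. Cd40, the co-stimulatory receptor of antigen-presenting cells, held 4.59, 7.67 and 2.95 adjusted reads in RANKL alone, 98.3, 53.2 and 73.5 with heat-killed MJ2, and 206, 241 and 253 with surface proteins. The 3 groups stood apart, with log2 fold changes of 5.34 ± 0.30 (limma adjusted p = 0.000287) for surface proteins and 3.68 ± 0.35 (adjusted p = 0.00464) for heat-killed MJ2. Like Fas, Cd40 entered both tests only through its treated libraries. Surface proteins exceeded heat-killed MJ2 by 1.66 ± 0.24 (limma adjusted p = 0.0127).

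Eda2r, a receptor of the ectodysplasin branch, had 14.9, 7.66 and 8.88 adjusted reads in RANKL alone, 24.6, 8.66 and 26.5 with heat-killed MJ2 and 60.7, 40.4 and 73.1 with surface proteins. Surface protein libraries were above all others, with a log2 fold change of 2.37 ± 0.32 against RANKL alone (limma adjusted p = 0.00386). Relt, an orphan receptor that binds TRAF1, had 61.0, 54.9 and 86.0, then 55.2, 51.3 and 58.9, then 18.6, 23.0 and 20.98 in the same order. It was lowest in all surface protein libraries, with log2 fold changes of -1.62 ± 0.21 against RANKL alone (limma adjusted p = 0.00339) and -1.36 ± 0.14 against heat-killed MJ2 (adjusted p = 0.00666). With surface proteins against RANKL alone 3 of 3 relatives tested passed, beside 17.5% of all genes, with heat-killed MJ2 1 of 3, beside 4.26%, and between the treated groups 2 of 3, beside 10.1%. Cd40 had to differ in the first 2 of these comparisons, so its part in those counts is no support for them.

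Downstream of the receptors, a list of 39 signalling genes held adaptors and kinases, ubiquitin genes, death genes and the genes that cut ligands from the surface. With surface proteins 2 of 38 tested passed, both higher, and with heat-killed MJ2 2 of 38, both higher (5.26% in each case, beside 17.5% and 4.26% of all genes). Rhbdf2, which carries the TNF-releasing protease ADAM17 to the surface, held 67.4, 83.1 and 70.2 adjusted reads in RANKL alone, 178, 169 and 124 with heat-killed MJ2, and 196, 288 and 213 with surface proteins. No treated library overlapped RANKL alone, and its log2 fold change was 1.63 ± 0.20 (limma adjusted p = 0.00281) with surface proteins and 1.07 ± 0.19 (adjusted p = 0.0307) with heat-killed MJ2. The second call was kept in 1 of 6 fits that each left out a library, with adjusted p of 0.0863, 0.0600 and 0.0913 without RANKL library 1, 2 or 3 and 0.105 and 0.0931 without heat-killed MJ2 library 1 or 2. It was lost too with no filter (0.0582) and with the replicate block (0.0726). Adam17 itself did not pass in any comparison.

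Map3k5 (ASK1), a MAP kinase kinase kinase that TRAF2 can activate, held 71.2, 70.2 and 66.2 adjusted reads in RANKL alone, 111, 117 and 118 with heat-killed MJ2, and 253, 273 and 182 with surface proteins. The 3 groups did not overlap, and surface proteins gave a log2 fold change of 1.73 ± 0.19 (limma adjusted p = 0.00209). Heat-killed MJ2 gave 0.73 ± 0.12 (limma adjusted p = 0.0260), under the fold limit. Mlkl, the executor of necroptosis, held 46.8, 47.5 and 62.3 in RANKL alone, 129.9, 86.1 and 112 with heat-killed MJ2 and 88.1, 47.9 and 48.4 with surface proteins. It passed with heat-killed MJ2 (1.04 ± 0.21, limma adjusted p = 0.0418) and in 0 of 6 fits that each left out a library, where its adjusted p lay between 0.0517 (without heat-killed MJ2 library 2) and 0.127 (without heat-killed MJ2 library 3). Quantile normalization (0.0539), no filter (0.0776), all 9 libraries in 1 fit (0.0512) and the replicate block (0.0857) also ended that call.

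By part of the list, adaptors and kinases had 1 of 12 higher with surface proteins and 0 of 12 with heat-killed MJ2, and ubiquitin genes had 0 of 12 in both. Death genes had 0 of 7 and 1 of 7, and shedding genes 1 of 7 in both. The shares over all genes at the same rule were 17.5% with surface proteins and 4.26% with heat-killed MJ2. With no limit on the fold change, 10 of 38 had a limma adjusted p under 0.05 with surface proteins, 9 higher and 1 lower, beside 29.1% of all genes. They included the NF-κB restraint gene Tnip1 (log2 fold change 0.96), the linear-ubiquitin protease gene Otulin (0.96) and the caspase-8 inhibitor gene Cflar (0.85), and the 1 that fell was Rbck1, a subunit of the linear ubiquitin ligase, at -0.79. In all, 4 had an adjusted p under 0.05 with heat-killed MJ2, all higher, beside 5.88% of all genes. Between the treated groups 3 of 38 passed, all higher with surface proteins (7.89%, beside 10.1% of all genes): Map3k5 (1.01), Otulin (1.15) and Tab3 (1.17). The replicate block ended the Tab3 call (limma adjusted p = 0.0559), and equal totals ended that of Map3k5 (0.93, under the fold limit). Of 6 fits that each left out a library, Map3k5 and Tab3 passed in 2 and Otulin in 3.

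The counts of signalling genes moved with single libraries. With surface proteins against RANKL alone the count was 4 without RANKL library 2 or surface protein library 1. With heat-killed MJ2 against RANKL alone it was 1 without heat-killed MJ2 library 3 and 0 without any 1 of the other 5 libraries. Between the treated groups it was 0 without surface protein library 2 or heat-killed MJ2 library 1, and 1 without surface protein library 3 or heat-killed MJ2 library 3.

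**Figure D4:**
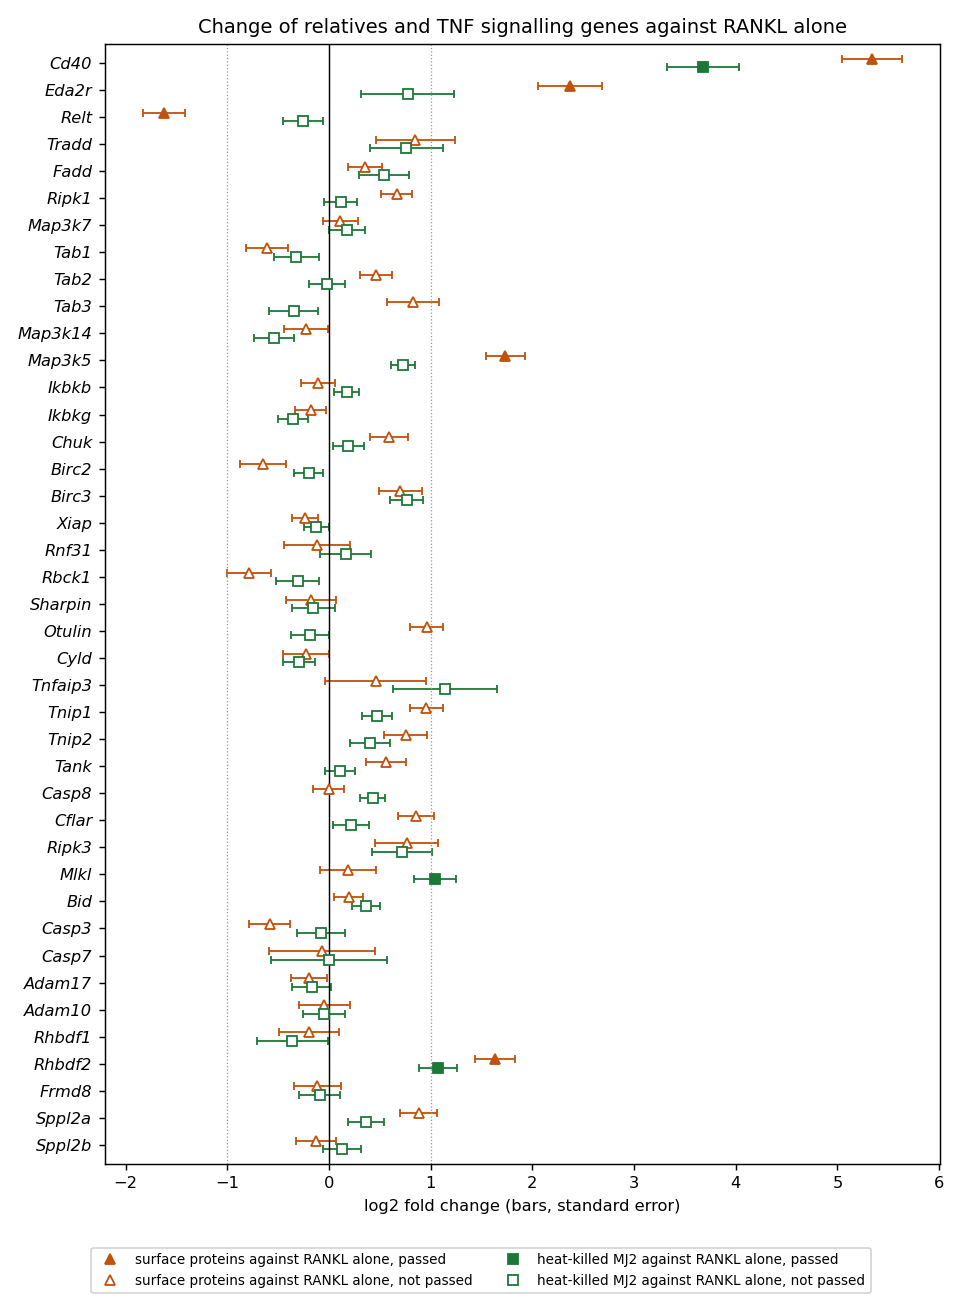
Log2 fold change with its standard error (bars) of the 3 relatives and 38 signalling genes tested, surface proteins (triangles) and heat-killed MJ2 (squares) each against the same 3 RANKL libraries. Filled symbols passed and dotted lines mark a fold change of 2. Cd40 lies farthest to the right in both comparisons (5.34 and 3.68), and most signalling genes lie between the dotted lines.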

How the data were processed

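RNA was measured in 9 libraries of RAW264.7 cells made with a 3′-end kit, 3 for each group, and groups and replicate numbers came from the sample titles and the study's methods. The authors deposited 1 log2 value per gene row and library, with a constant of 1 added before the log. The submitters' processing notes name Bowtie2, bedtools and mm10, and the study's methods name quantile normalization, but the sorted columns differ by up to 1.60 log2, so the scaling carried by the values is not known and the counting of strand and of shared reads is not given in the sources used here. Adjusted reads were obtained as 2 to the deposited value, minus 1. Between 0.5 and 3.5 adjusted reads, 100% of values in each library lie within 0.25 of a whole-read step, but they are not counts, so limma 3.58.1 in R 4.3.3 (lmFit, eBayes) was run on the deposited log2 values. RANKL library 2, heat-killed MJ2 library 1 and surface protein library 3 each had 15503 rows above 0, against 12407 to 13207 in the others. Low rows in those libraries carry values far under 1 read, such as 0.0454 for Lta in RANKL library 2. How their zeros were handled is not given.

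Each comparison used its own 6 libraries and every gene that reached 10 adjusted reads in 3 or more of them, with Benjamini-Hochberg adjustment over all genes tested. With 3 libraries against 3, an exact permutation test of 1 gene cannot go below 0.1, so none was run. Totals of 5930926 to 6503682 adjusted reads per library set the depth, and 0 reads allow up to 3, for counting error only. Members past the threshold in any comparison got test values where they passed and in most other comparisons. The other members got ranges, except that Ltb, Ltbr, Tnfrsf1a, Tnfrsf9, Tnfrsf22, Tnfrsf26 and Traf1 were given test values after their values were seen. Listed genes were named where they passed against RANKL alone or, chosen after their values were seen, for the comparison of the treated groups and for adjusted p alone. The members and gene lists were chosen with earlier results of these data known. The alternatives were other scalings, filters, constants, fits and thresholds, and leaving out each library.

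Gene positions are those of GENCODE M21 (GRCm38), promoters those of RefSeq (GRCm38.p6), and the code ran on Python 3.11.15, pandas 2.3.3, numpy 2.4.6 and matplotlib 3.10.9. The fit was tested on simulated data: for surface proteins against RANKL alone (10874 genes, 200 changed) it recovered 85 of 107 genes changed 4-fold and 85 of 93 changed 8-fold and called 7 unchanged genes. At 4-fold it recovered 75 of 98 with heat-killed MJ2 against RANKL alone and 73 of 95 between the treated groups. The simulated noise was normal and only 200 genes changed, whereas 17.5% of genes passed with surface proteins in the data. These figures therefore say nothing about calls near a fold change of 2.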

Additional observations from a re-analysis of the deposited data

How the results depend on the processing

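Across the alternatives, the number of members that passed was 6 to 8 with surface proteins against RANKL alone (7 as reported) and 3 to 6 with heat-killed MJ2 against RANKL alone (4). Leaving out 1 library gave 6 to 8 and 3 to 4, and for surface proteins against heat-killed MJ2 (2) it gave 0 to 4. That last count was 1 with no filter, 4 with an intensity trend and robust fit, 4 at an unadjusted p and 5 with no limit on the fold change. The relatives gave 1 and 0 against RANKL alone when every library had to reach 10 adjusted reads, since Cd40 and Eda2r were then not tested. The signalling list gave 10 with surface proteins and 4 with heat-killed MJ2 with no limit on the fold change. With heat-killed MJ2 it gave 1 under quantile normalization, 1 with all 9 libraries in 1 fit, 0 with no filter and 0 with the replicate block. Leaving out 1 library gave 2 to 4, 0 to 1 and 0 to 3 in the 3 comparisons, and the causes were not tested. Of 977 alternatives for single genes, 874 kept direction and side of the threshold, 52 lost the call, 40 gained it and 11 turned direction. The turns were near 0: Tnfsf13 between the treated groups (-0.067 with equal totals, -0.29 to 0.22 without 1 library), Tnfrsf1b between the treated groups (-0.10 to 0.30), Ltb with surface proteins (-0.15 to 0.19) and Tnfrsf1a with heat-killed MJ2 (-0.18 to 0.075). Tnf, Tnfrsf1b and Tnfsf8 against RANKL alone in both comparisons, and Tnfsf9 and Tnfsf13 with surface proteins, passed in every alternative fitted. Fas with surface proteins also did, but it entered the filtered fits only through its treated libraries, so this is no sign of stability. Fas and Tnfsf8 could not be fitted where every library had to reach 10 adjusted reads. Tnfsf8 met the filter with 3 RANKL libraries at that level, but only 1 surface protein library and 2 heat-killed MJ2 libraries reached it. Its calls therefore rest on treated values near the floor, and its passing throughout is weaker support than for Tnf. In their deviations from the group means, same-numbered libraries correlated at 0.0179 to 0.0656, 0.0454 to 0.106 and 0.0680 to 0.0958 in the 3 comparisons. Libraries of unlike number correlated at -0.0556 to -0.000257, -0.0755 to 0.0311 and -0.0623 to -0.0116. In each comparison 6 of 6 libraries correlated best with their own number. The same-number values were small, and the main fit did not take the numbers as pairing. Whether the numbers mark a shared effect was not tested. The replicate block gave 6, 3 and 3 members, losing Traf5 with surface proteins (adjusted p = 0.0840) and Tnfsf9 with heat-killed MJ2 (0.0551) and adding Tnfrsf22 between the treated groups (0.0381). The 17 members that did not reach 10 adjusted reads in 3 libraries were left out by the filter, and with no filter 36 members were tested.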
